A study of Mus musculus with 10 samples.

Results

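The ATP-binding cassette (ABC) transporters form a large gene superfamily. They are taken here as every row of both deposited tables whose identifier starts with Abc, then a letter from a to g, then a digit. 50 of 23364 genes met this rule, which uses names and no measured value. Poly(A) RNA of mouse distal colon crypts, loosened from the tissue with EDTA and shaken off, was sequenced in 10 libraries of 3 groups. In AOM+DSS (3 libraries), mice had received azoxymethane (AOM, a DNA-alkylating carcinogen) and then dextran sulfate sodium (DSS), a model that the submitters call inflammation-driven cancer. In DSS (4 libraries), mice had received DSS alone, a polymer that injures the colon lining and inflames it. Control (3 libraries) came from mice without treatment. The labels give no strain, age, dose or time. They also do not state that each library is its own animal, so the p-values speak of library-to-library spread, part of which may be technical.

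An ABC protein binds and hydrolyses ATP at paired nucleotide-binding domains and uses that energy to move a substrate across a membrane. Members of subfamilies A to D and G span membranes, whereas ABCE and ABCF proteins lack membrane domains and act at ribosomes. In the gut, P-glycoprotein and the breast cancer resistance protein return drugs and food toxins to the lumen, the ABCC pumps move conjugates and organic anions through the apical or basolateral face, and the ABCG5 and ABCG8 dimer returns sterols to the lumen.

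The tables hold group means of reads divided by a size factor for each library (normalized reads). Whole reads of single libraries were recovered from these means for all 50 members in AOM+DSS and control. In DSS they were recovered for 45, while Abca7, Abcb1a, Abcc3, Abcd3 and Abcf1 have a group mean alone. Libraries are lettered from the deepest within each group. Recovered depth was 16165300 to 23593132 reads in AOM+DSS and 15035016 to 16690277 in control. The DSS size factors ran from 0.645 to 1.27, so DSS libraries c and d were the shallowest. The 9 epithelial markers, such as Epcam and Krt8, summed to 219250.0 normalized reads in AOM+DSS, 246486 in DSS and 220084 in control, and 0 of them passed in either comparison with control. Epithelial transcripts were thus abundant in all groups, as the crypt label says. Libraries also carried other cells' transcripts in unequal amounts. Smooth muscle markers summed to 1886, 1642 and 14744 normalized reads in AOM+DSS libraries a to c, so library c stood apart, and control library b held more fibroblast and immune markers than control libraries a and c.

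The summed level of the members stayed close across groups, at 43026 normalized reads in AOM+DSS, 47209.7 in DSS and 47076.5 in control, which is 0.232%, 0.242% and 0.250% of the sum over all genes. Levels within the superfamily spanned orders of magnitude. A mean of at least 1000 normalized reads was reached by 15 members in AOM+DSS, 16 in DSS and 15 in control, and a mean under 10 was found for 12, 13 and 14 members in the same order. Abcb1a and Abcc3 alone held 28.8% of the members' sum in AOM+DSS, 32.3% in DSS and 40.1% in control. Abca16 and Abcb5 had 0 reads in all libraries. Such a count allows a group mean of up to 0.867 normalized reads in AOM+DSS, 0.783 in DSS and 1.00 in control (3 reads over the group, counting error only).

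Per kb of exon, which sets genes of unequal length on one scale, the highest members in AOM+DSS were Abcd3 at 1332 normalized reads per kb, Abcb1a at 1299.9, Abcc3 at 1177 and Abcf1 at 999. The library ranges of the first 3 overlapped, so their order is not set by these data. In DSS the order of group means was Abcb1a at 1644, Abcd3 at 1452, Abcc3 at 1409 and Abcf1 at 1128. Control libraries had Abcb1a at 2322 normalized reads per kb, above Abcc3 at 1457, Abcf1 at 1110.3 and Abcd3 at 989. The other ABCA and ABCG members, whose best known sites of action lie outside the gut or whose substrates are unknown, stood under 10 normalized reads per kb in every group.

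**Figure D1:**
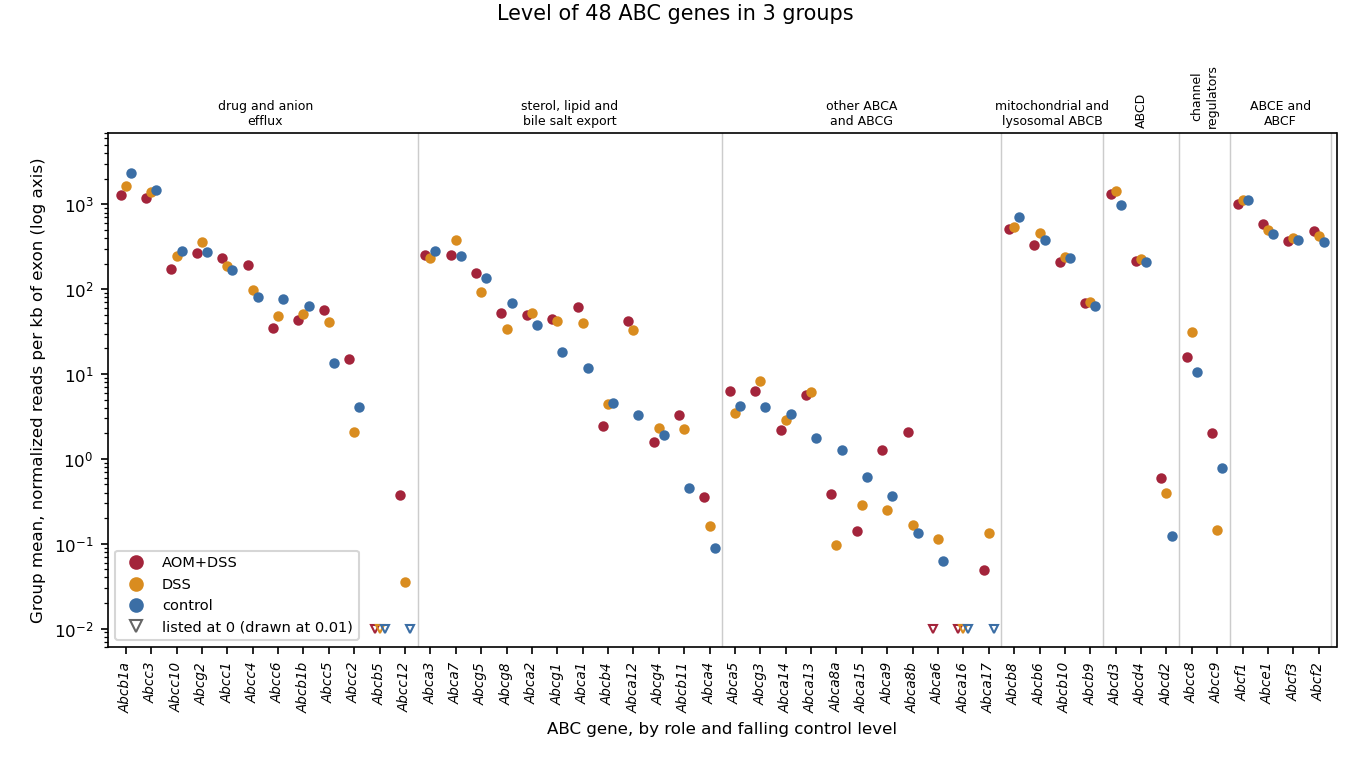
Group mean of 48 ABC genes in normalized reads per kb of exon (log axis), for AOM+DSS, DSS and control, grouped by role. Open triangles mark genes listed at 0. Points of the 3 groups lie close together for high members such as Abcf1 (999, 1128 and 1110.3) and apart for Abca12 (42.4, 33.5 and 3.26).

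Most members did not pass the test in either comparison with control. A gene was called where the adjusted p of the authors' deposited table was under 0.05. In AOM+DSS, 2 of 48 members tested were called higher (Abca12 and Abcc5) and 2 lower (Abcb1a and Abcc6), or 8.33%, beside 8.89% of all 18334 tested genes (5.54% higher and 3.35% lower). In DSS, 2 of 48 were called higher (Abca12 and Abcc5) and 1 lower (Abcg8), or 6.25%, beside 4.39% of all 18099 tested genes (2.61% higher and 1.78% lower). Both shares are near those of all genes, so the family as a whole did not stand out. Both comparisons use the same controls. The median log2 fold change of the authors' deposited table was 0.15 over 45 members in AOM+DSS, against 0.02 over all genes, and 0.13 over 46 members in DSS, against 0.02 over all genes. Among the 15 members with a mean of at least 1000 over the groups, log2 fold changes in the authors' deposited table lay between -0.84 and 0.47 in AOM+DSS, where 1 was called, and between -0.50 and 0.64 in DSS, where 0 were called. Before adjustment, the authors' deposited table lists, at p under 0.05, 13 members in AOM+DSS (9 higher and 4 lower), where 18.9% of all genes reach it. It lists 10 in DSS (6 higher and 4 lower), where 13.2% of all genes do.

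A second test, limma on log2(normalized reads + 1) of the recovered libraries, took in 48 members for AOM+DSS and 43 for DSS. In AOM+DSS it called 8 members higher (Abca1, Abca12, Abcb11, Abcc4, Abcc5, Abcc12, Abcd3 and Abcg1) and 3 lower (Abcb8, Abcc6 and Abcc10), where it called 17.3% of the 18222 genes fitted (10.8% higher and 6.44% lower). In DSS it called Abca12, Abcc5 and Abcc8 higher and 0 lower, where it called 5.52% of the 15817 genes fitted (2.91% higher and 2.61% lower). Fits with DSS leave out genes without recovered DSS library values, and the genes recovered there held 34.6% of the DSS mean total. Of the 11 AOM+DSS calls, those of Abca1, Abcc5 and Abcg1 held in all 6 fits that leave out 1 library, and that of Abcc12 held in 0 of them. The others held in 1 to 3 of the 6. A limma fold change is a difference of mean log values and can lie on either side of the log of the ratio of means.

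The drug and organic anion pumps hold 12 members. Of 11 tested, 1 rose and 2 fell in AOM+DSS, and 1 rose and 0 fell in DSS. Over all genes, 5.54% were called higher and 3.35% lower in AOM+DSS, and 2.61% higher and 1.78% lower in DSS. These shares stand beside the counts of every role class. With so few genes in a class, such counts do not set it apart from all genes. Abcb1a and Abcb1b encode the mouse P-glycoproteins, apical pumps that expel many drugs. Abcb1a had 7455, 4486 and 7547 normalized reads in AOM+DSS libraries a to c, against 10286, 14943 and 9578 in control libraries a to c. Every AOM+DSS library lay below every control library. Abcb1a fell by 0.84 on the log2 scale in AOM+DSS by the authors' deposited table (adjusted p = 0.0133). The summed markers of the colonocyte list, which includes Muc2, were also lower in AOM+DSS, though 0 of 6 passed in either comparison. The sum was 100051 normalized reads in AOM+DSS, 141909 in DSS and 132388 in control. Of these, the chloride exchanger Slc26a3 had means of 7086, 12104 and 17422, and the carbonic anhydrase Car4 had 9278, 16470.0 and 21891, in the same order. Car1, Aqp8 and Guca2a were also lower in AOM+DSS than in control. Muc2, a goblet cell mucin and the largest part of each sum, went the other way. Its means were 57576, 70884 and 53388 in the same order, so the sums do not stand for colonocytes alone. The part of colonocytes in the fall of Abcb1a was not tested. With limma the adjusted p of Abcb1a was 0.0507 (log2 -0.85, SE 0.24). In DSS the group mean of 8216 normalized reads gave a log2 fold change of -0.50 in the authors' deposited table, which did not pass (adjusted p = 0.327). Without control library b, the highest control, limma gave a log2 value of -0.65 in AOM+DSS, and the adjusted p ran from 0.0499 to 0.133 over the 6 fits with 1 library left out. Abcb1b averaged 188 ± 45.0 normalized reads in AOM+DSS, 217 ± 53.3 in DSS and 275 ± 102 in control (SD, n = 3, 4 and 3), and passed in neither comparison. The gene pair shares sequence. In GENCODE M21, 15.5% of the 50-base stretches of Abcb1a also occur in Abcb1b, so reads in these stretches may be split between the genes or lost.

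Abcc5, an exporter of cyclic nucleotides and other organic anions, rose in both treatments. It had 343, 475 and 249.7 normalized reads in AOM+DSS libraries a to c, 326, 220.0, 207 and 254 in DSS libraries a to d and 78.2, 102 and 71.0 in control libraries a to c. All 7 treated libraries lay above all 3 controls. The authors' deposited table gives a log2 fold change of 2.09 in AOM+DSS (adjusted p = 1.98e-06) and of 1.59 in DSS (adjusted p = 0.000518). Limma called both (adjusted p = 0.00508 and 0.0071). The AOM+DSS call held in all 6 fits that leave out 1 library, and the DSS call was lost without control library a (adjusted p = 0.0592) or c (adjusted p = 0.0542).

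Abcc6, best known as a liver transporter needed for ATP release whose loss in humans causes ectopic calcification, fell in AOM+DSS. It had 146, 138 and 235 normalized reads in AOM+DSS libraries a to c, 191, 167, 384 and 220.2 in DSS libraries a to d and 367, 395 and 393 in control libraries a to c. AOM+DSS and control did not overlap, while DSS library c lay within the control range. Abcc6 fell by 1.15 on the log2 scale in AOM+DSS by the authors' deposited table (adjusted p = 0.00483), and limma also called it (adjusted p = 0.014). The limma call was lost without control library a, control library c or AOM+DSS library a (adjusted p = 0.0696, 0.0688 and 0.065). In DSS the log2 fold change of -0.68 in the authors' deposited table did not pass (adjusted p = 0.137). Without DSS library c, limma called it, and it fell by 1.00 on the log2 scale (adjusted p = 0.0205).

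Abcc3, a basolateral pump for glucuronide conjugates and bile salts, was the other high member of this class. It had 6684, 4751 and 6245 normalized reads in AOM+DSS libraries a to c, against 7380.2, 7851 and 6640.1 in control libraries a to c, and a DSS group mean of 7053. AOM+DSS library b was lowest, and AOM+DSS library a overlapped the control range. Neither comparison passed in the authors' deposited table (log2 -0.31 in AOM+DSS and -0.05 in DSS).

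The other pumps of this class split by treatment and library. Abcc4, which exports cyclic AMP and prostaglandins, had 1159, 1502 and 614 normalized reads in AOM+DSS libraries a to c, 762, 746, 334 and 399 in DSS libraries a to d and 475, 481 and 429 in control libraries a to c. Every AOM+DSS library exceeded every control, and DSS libraries c and d lay below the controls while a and b lay above. Limma called Abcc4 higher in AOM+DSS (log2 1.15, SE 0.29, adjusted p = 0.0352), and the authors' deposited table did not (log2 1.24, adjusted p = 0.0833). The limma call was lost in 5 of the 6 fits with 1 library left out (adjusted p = 0.0508 to 0.129) and held without AOM+DSS library c. Abcc2, an apical pump for conjugates, had 162, 173 and 24.3 normalized reads in AOM+DSS libraries a to c, 34.0, 13.2, 5.66 and 14.0 in DSS libraries a to d and 28.0, 61.2 and 9.53 in control libraries a to c. Its 2 highest values were AOM+DSS libraries a and b, and AOM+DSS library c lay among the controls. Abcc2 passed in neither comparison with control. Abcg2, the breast cancer resistance protein, averaged 1556 ± 625 normalized reads in AOM+DSS, 2102 ± 431 in DSS and 1584 ± 169.7 in control (SD, n = 3, 4 and 3) and passed in neither. Abcc1, a pump for glutathione conjugates, had log2 fold changes of 0.47 in AOM+DSS and 0.18 in DSS in the authors' deposited table, and Abcc10 had -0.69 and -0.21, and none of these passed. Limma called Abcc10 lower in AOM+DSS (adjusted p = 0.0204), and in 2 of the 6 fits that leave out 1 library. Abcc12 had 1, 4 and 2 reads in AOM+DSS libraries a to c, 1 read in all of DSS and 0 in control, where 3 reads over the group would be a mean of 1.00 normalized reads.

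The sterol, phospholipid and bile salt exporters hold 12 members, all tested. In AOM+DSS 1 rose (Abca12) and 0 fell, and in DSS 1 rose (Abca12) and 1 fell (Abcg8). Abca12, which loads glucosylceramides into lamellar granules of skin keratinocytes, had the largest log2 fold change of the 5 called members in both treatments. It had 279.6, 474 and 409 normalized reads in AOM+DSS libraries a to c, 368, 146, 415 and 295 in DSS libraries a to d and 2.90, 78.0 and 8.47 in control libraries a to c. All 7 treated libraries exceeded all 3 controls, and control library b stood well above control libraries a and c. The authors' deposited table gives a log2 fold change of 3.70 in AOM+DSS (adjusted p = 5.37e-10) and 3.36 in DSS (adjusted p = 1.99e-08). Limma gave 4.73 (SE 0.97, adjusted p = 0.0186) and 4.32 (SE 0.88, adjusted p = 0.0255). Without control library b, which also held more fibroblast and immune marker reads, the limma values were 5.96 and 5.55. The limma call was lost in AOM+DSS without control library a or c or AOM+DSS library a or b (adjusted p = 0.0602 to 0.0832). It was lost in DSS without control library a or c or DSS library c or d (adjusted p = 0.0524 to 0.144). The 3 genes whose log2 levels followed Abca12 most closely over the 10 libraries, of 16331 compared, were Sptssb (Pearson's r = 0.980), H2-DMa (0.978) and Dusp8 (0.975). These values describe a split between control and treated libraries that all 4 genes share, and carry no test. In all 4 genes, control library b also stood above control libraries a and c. In bulk samples, fewer cells of a type and less RNA per cell cannot be told apart, which applies to every difference given here.

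Promoters are shown for the 3 called members with an entry of their own in the RefSeq table. The 250 bases before the RefSeq start are given 5′ to 3′ on the gene's strand, from GRCm38.p6, which is not the mm9 build of the deposited tables. The 3 are wholly in lower case because none holds a searched motif, which capitals mark elsewhere. Abca12 lies at chr1:71414911-71415160 on the minus strand, Abcc5 at chr16:20426395-20426644 on the minus strand and Abcb1a at chr5:8566841-8567090 on the plus strand. Their GC content is 53.2%, 64.0% and 40.4%, with 5, 17 and 0 CpG dinucleotides, in that order.
Abca12: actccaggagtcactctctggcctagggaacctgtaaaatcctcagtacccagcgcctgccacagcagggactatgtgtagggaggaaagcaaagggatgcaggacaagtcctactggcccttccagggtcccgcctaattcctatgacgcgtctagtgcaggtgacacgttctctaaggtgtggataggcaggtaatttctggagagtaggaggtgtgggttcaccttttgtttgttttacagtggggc
Abcc5: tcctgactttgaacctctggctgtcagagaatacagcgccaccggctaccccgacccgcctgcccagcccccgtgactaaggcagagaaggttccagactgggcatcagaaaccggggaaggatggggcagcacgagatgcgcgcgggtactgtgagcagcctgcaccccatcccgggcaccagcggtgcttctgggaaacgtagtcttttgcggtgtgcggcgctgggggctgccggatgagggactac
Abcb1a: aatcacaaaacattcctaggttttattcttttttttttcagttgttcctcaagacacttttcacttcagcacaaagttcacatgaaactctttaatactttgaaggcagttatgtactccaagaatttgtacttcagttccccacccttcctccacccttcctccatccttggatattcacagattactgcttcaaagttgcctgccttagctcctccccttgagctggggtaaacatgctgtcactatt
RefSeq promoter entries were found for 38 of the 50 members, with 45 entries in all. The motifs searched on both strands were TATAAA (11.1% of members' entries and 12.4% of 32851 entries), GGGCGG (44.4% and 32.7%), CCAAT (28.9% and 33.8%), the AP-1 site TGANTCA (0% and 6.75%) and the NF-kB site GGGANTTTCC (0% and 0.356%). Elements of nuclear receptors were also searched, as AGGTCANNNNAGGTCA (0% and 0.0152%) and a looser form, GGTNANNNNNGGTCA (2.22% and 0.177%), which was added after the exact form had found nothing among members. A match is a description of letters in this window.

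Abcg5 and Abcg8 encode the 2 subunits of the sterol exporter and are transcribed away from each other. In these annotations 109 bases separate their RefSeq starts, at chr17:84683012-84683120 of GRCm38.p6, shown on the plus strand with the capitals marking a TATAAA match read on the minus strand, at bases 79 to 84.
Abcg5 and Abcg8: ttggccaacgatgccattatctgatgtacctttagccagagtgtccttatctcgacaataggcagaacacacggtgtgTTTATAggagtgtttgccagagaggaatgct
Abcg8 had 207, 199 and 182 normalized reads in AOM+DSS libraries a to c, 143, 135, 109 and 126 in DSS libraries a to d and 313, 165 and 293 in control libraries a to c. All 4 DSS libraries lay below all controls, and AOM+DSS lay within the control range. Abcg8 fell by 1.00 on the log2 scale in DSS by the authors' deposited table (adjusted p = 0.0398). Limma did not call it (log2 -0.95, SE 0.25, adjusted p = 0.065), except without control library b (adjusted p = 0.0141). Abcg5 had 384, 399.5 and 334 normalized reads in AOM+DSS libraries a to c, 295, 213, 161 and 229.6 in DSS libraries a to d and 464, 209 and 299.8 in control libraries a to c. Control library b was the lowest control for both subunits, and every AOM+DSS library exceeded every DSS library for both. Abcg5 passed in neither comparison with control (log2 0.20 in AOM+DSS and -0.53 in DSS in the authors' deposited table).

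Abca1 and Abcg1 pass cholesterol to apolipoprotein A-I and to HDL, and both are known targets of the oxysterol receptors LXR alpha and LXR beta. Abca1 had 555, 1002 and 360.1 normalized reads in AOM+DSS libraries a to c, 1054, 325, 136 and 107 in DSS libraries a to d and 107, 124 and 136 in control libraries a to c. All AOM+DSS libraries and DSS libraries a and b lay above the controls, and DSS libraries c and d lay at the edges of the control range. Abcg1 had 289, 337 and 295 normalized reads in AOM+DSS libraries a to c, 639, 187, 171 and 149 in DSS libraries a to d and 137, 94.8 and 143 in control libraries a to c. Every treated library exceeded every control, with DSS library a far above the other DSS libraries. The authors' deposited table called neither gene (Abca1 log2 2.38 in AOM+DSS and 1.73 in DSS, Abcg1 1.30 and 1.20). Limma called both in AOM+DSS (Abca1 log2 2.25, SE 0.34, adjusted p = 0.00753, and Abcg1 log2 1.31, SE 0.21, adjusted p = 0.0092), and in each of the 6 fits that leave out 1 library. Myeloid markers were also higher in AOM+DSS. Their 13 measured genes summed to 9938, 19326 and 7520.0 normalized reads in AOM+DSS libraries a to c, 9181, 10502, 3216 and 3313 in DSS libraries a to d and 1561, 3387 and 1606 in control libraries a to c, with 9 called higher in AOM+DSS and 4 in DSS. AOM+DSS library b was highest and c lowest for both the markers and Abca1, and DSS libraries a and b stood above c and d for both. Other libraries did not match. DSS library a had more Abca1 than b with a lower marker sum, and control library b had the highest marker sum of the controls with an Abca1 level between those of a and c. The part of myeloid cells in these differences was not tested. The Abca1 promoter lies at chr4:53159896-53160145 of GRCm38.p6 on the minus strand, with 61.6% GC and 20 CpG. It is shown because it was the only member promoter with the looser receptor element. In order, capitals mark GGGCGG at -163 to -158 and -97 to -92, the looser element at -67 to -53 (read on the other strand) and TATAAA at -29 to -24, counted from the start.
Abca1: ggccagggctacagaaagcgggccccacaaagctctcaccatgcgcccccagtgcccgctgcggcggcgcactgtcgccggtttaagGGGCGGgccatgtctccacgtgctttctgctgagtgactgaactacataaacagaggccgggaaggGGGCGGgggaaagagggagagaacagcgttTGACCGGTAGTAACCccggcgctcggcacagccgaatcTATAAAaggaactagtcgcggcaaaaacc

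**Figure D2:**
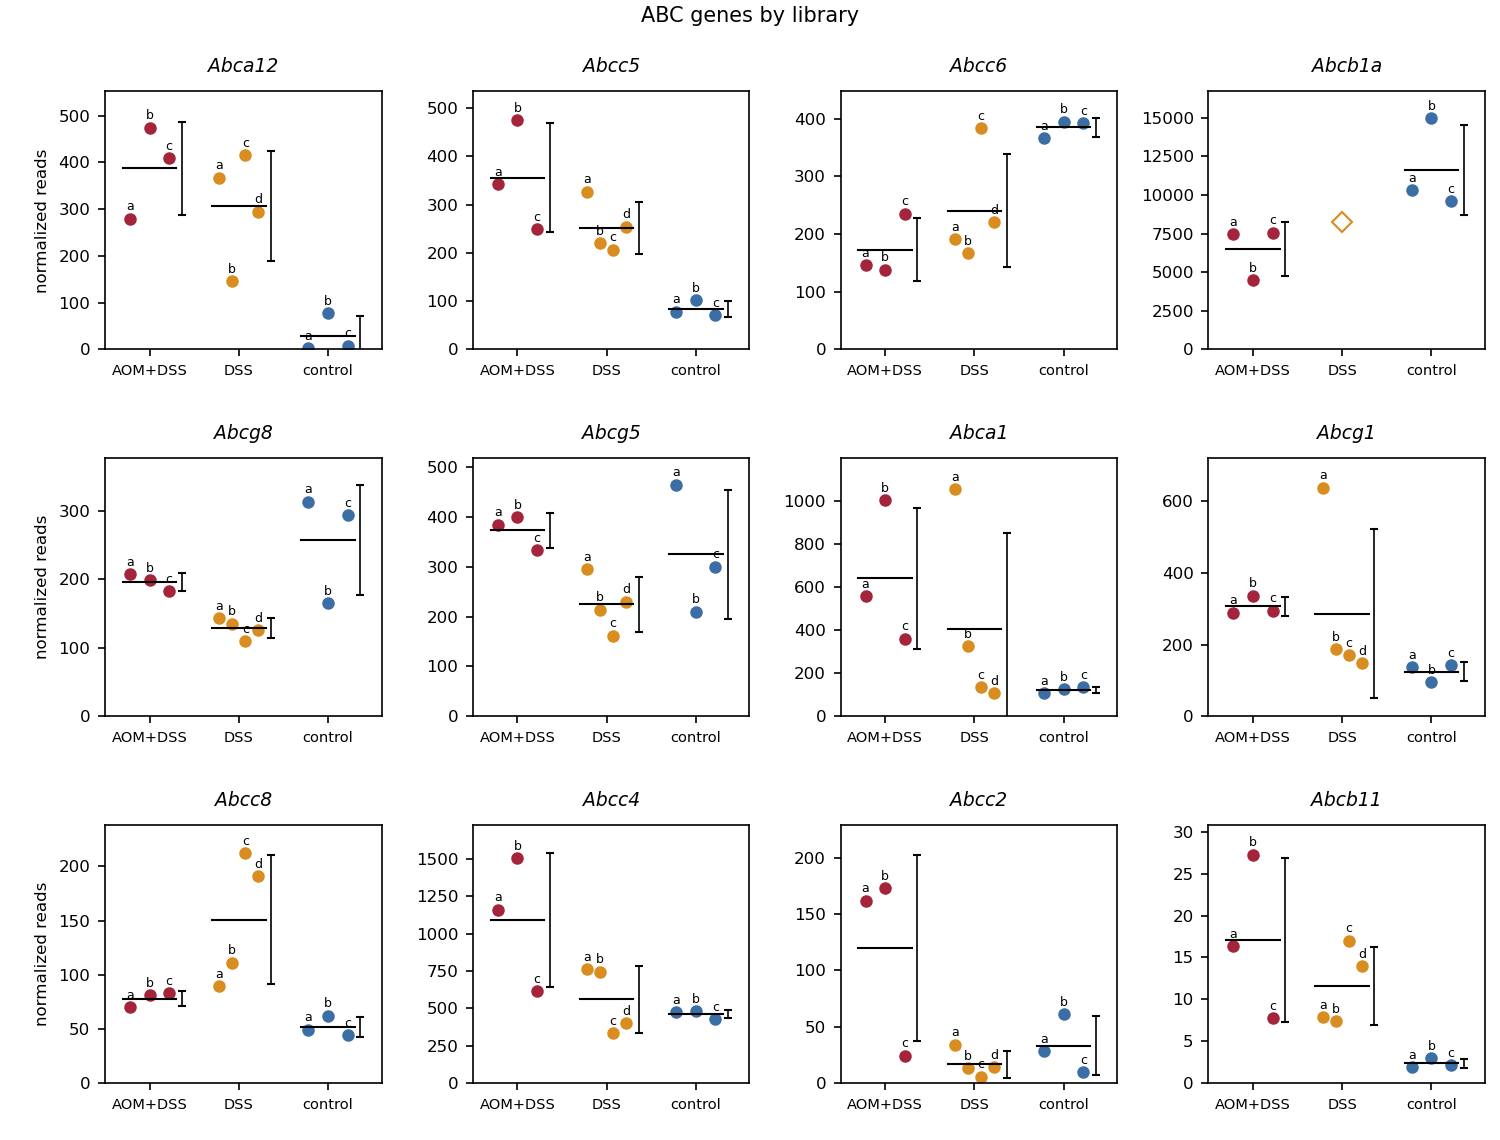
Normalized reads of 12 ABC genes in each library, with letters by depth within the group. Lines are group means, bars beside them are ± 1 SD (ending at 0 where they would go below), and the open diamond is a group mean with no library values (Abcb1a in DSS). Treated and control libraries do not overlap for Abca12, Abcc5, Abcg1, Abcc8 and Abcb11, and Abca1 in DSS ranges from 107 to 1054.

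The remaining exporters of lipids and bile salts did not pass. Abca3, which loads surfactant lipids in the lung, had 1667, 1765 and 1433 normalized reads in AOM+DSS libraries a to c, 1982, 1886, 1110.2 and 1002 in DSS libraries a to d and 2023, 1913 and 1532 in control libraries a to c. Abca7, a phospholipid exporter, had 1552, 1795 and 1834 in AOM+DSS libraries a to c, against 1705, 1633 and 1668 in control libraries a to c, and a DSS group mean of 2598. AOM+DSS and control overlapped for both genes, and DSS libraries c and d were lowest for Abca3. The authors' deposited table gives Abca7 a log2 fold change of 0.64 in DSS (adjusted p = 0.372). Abcb11, the bile salt export pump of hepatocytes, had 16.4, 27.3 and 7.73 normalized reads in AOM+DSS libraries a to c, 7.90, 7.42, 17.0 and 14.0 in DSS libraries a to d and 1.93, 2.96 and 2.12 in control libraries a to c. Its levels were low, and no treated library overlapped the controls. Limma called Abcb11 in AOM+DSS (log2 2.30, SE 0.54, adjusted p = 0.0285) and the authors' deposited table did not (adjusted p = 0.154). The limma call was lost without control library a or c or AOM+DSS library a or b (adjusted p = 0.0818 to 0.119). Abcb4, which moves phosphatidylcholine into bile, averaged 9.99 ± 5.60 normalized reads in AOM+DSS, 18.0 ± 7.64 in DSS and 18.4 ± 2.08 in control (SD, n = 3, 4 and 3). Abca4, known from photoreceptors, and Abcg4 stayed under 10 normalized reads on average in every group.

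The other ABCA and ABCG members hold 11 genes, of which 10 were tested and 0 passed in either comparison. Abca13 and Abca5 were the highest of them by the mean over groups. Abca13 had 118, 106 and 45.3 normalized reads in AOM+DSS libraries a to c, 174, 115, 53.8 and 46.5 in DSS libraries a to d and 22.2, 49.4 and 13.8 in control libraries a to c. AOM+DSS library c and DSS library d lay below control library b. Abca5 had 52.1, 62.0 and 42.0, 45.8, 23.1, 24.1 and 21.7 and 25.1, 43.5 and 36.0 in the same order. Abca8a, Abca8b and Abca9 lie in a cluster on chromosome 11 with Abca5 and Abca6. Their levels were low and uneven among libraries. Abca8a had 0, 0 and 6.63 normalized reads in AOM+DSS libraries a to c, 0, 0.824, 1.42 and 0 in DSS libraries a to d and 0.965, 20.7 and 0 in control libraries a to c. Abca8b had 4.46, 34.7 and 6.63, 1.58, 3.30, 0 and 0 and 0.965, 1.98 and 0, and Abca9 had 6.69, 9.10 and 8.84, 3.95, 2.47, 0 and 0 and 0, 6.91 and 0, in the same order. Fibroblast and matrix markers summed to 1272, 1275 and 4025 normalized reads in AOM+DSS libraries a to c, 468, 635, 514 and 485 in DSS libraries a to d and 555, 2162 and 462 in control libraries a to c. Control library b, the highest control for these markers, was also the highest control for all 3 genes, for Abca8b by 2 reads against 1 in library a. In AOM+DSS the markers were highest in library c, as was Abca8a, while Abca8b and Abca9 were highest in library b. The part of these cells in the values was not tested.

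The channel regulators are Abcc8 and Abcc9, the sulfonylurea receptors that gate potassium channels in pancreatic beta cells and in muscle. Neither passed in the authors' deposited table. Abcc8 had 69.9, 81.1 and 82.9 normalized reads in AOM+DSS libraries a to c, 89.3, 111, 212 and 191 in DSS libraries a to d and 49.2, 62.2 and 44.5 in control libraries a to c. All treated libraries exceeded all controls, and DSS libraries c and d, the shallowest, were the highest. Abcc8 had a log2 fold change of 1.54 in DSS by the authors' deposited table (adjusted p = 0.065), and limma called it (adjusted p = 0.0459), but not in the fits without control library a, b or c or DSS library b, c or d (adjusted p = 0.0557 to 0.197). Abcc9 had 2.97, 0.827 and 47.5 normalized reads in AOM+DSS libraries a to c, 1.58, 3.30, 0 and 0 in DSS libraries a to d and 0.965, 18.8 and 0 in control libraries a to c. AOM+DSS library c and control library b held nearly all of its reads. Those are also the libraries with the highest smooth muscle marker sums of their groups, at 1886, 1642 and 14744 normalized reads in AOM+DSS libraries a to c, 1842, 2320.2, 1954 and 2018 in DSS libraries a to d and 1519, 3102 and 1502 in control libraries a to c. The same libraries were highest of their groups for fibroblast and matrix, endothelial, B and plasma cell and T and NK cell markers. The part of any of these cells in the Abcc9 values was not tested.

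**Figure D3:**
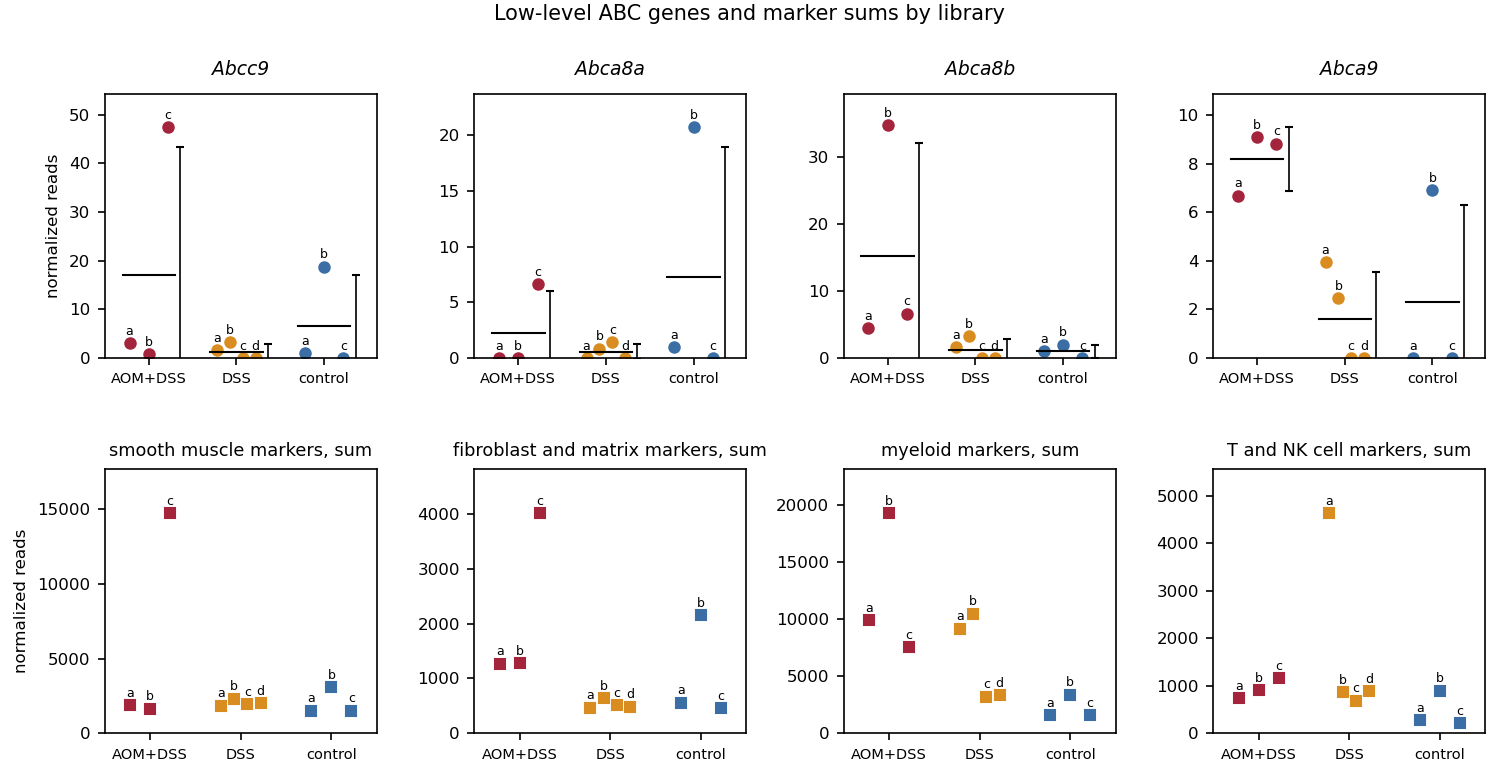
Normalized reads by library of 4 low ABC genes (upper row, circles, with group mean and SD) and of the summed markers of 4 other cell types (lower row, squares), with letters by depth within the group. Abcc9 is highest in AOM+DSS library c, where smooth muscle markers reach 14744 and fibroblast and matrix markers are also highest. Abca8a is highest in control library b. The part of these cells in the values was not tested.

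The ABCB members of mitochondria and lysosomes hold 5 genes, and 0 passed in either comparison. Abcb8, an inner mitochondrial membrane protein, had 1649, 1672 and 1357 normalized reads in AOM+DSS libraries a to c, 1251, 1403, 2005 and 2047 in DSS libraries a to d and 2279.5, 1907 and 2394 in control libraries a to c. AOM+DSS lay wholly below control, and limma called the difference (log2 -0.49, SE 0.13, adjusted p = 0.0383), whereas the authors' deposited table did not (log2 -0.49, adjusted p = 0.197). The limma call held without control library b and was lost in the other 5 fits with 1 library left out (adjusted p = 0.0606 to 0.151). Abcb6, a porphyrin transporter, had 1007, 622 and 1299 normalized reads in AOM+DSS libraries a to c, 1107, 1017, 1507 and 1793 in DSS libraries a to d and 1121, 1139.7 and 1084 in control libraries a to c. The treated groups spread to both sides of the narrow control range. Abcb9, a lysosomal peptide transporter, and Abcb10, which acts in heme synthesis of red cell precursors, did not pass either.

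The ABCD members import fatty acids into peroxisomes, except Abcd4, which serves cobalamin release from lysosomes. None passed in the authors' deposited table, where 0 of 4 tested were called in either comparison. Abcd3 had 5152, 4613 and 4711 normalized reads in AOM+DSS libraries a to c, against 3417, 4159 and 3166 in control libraries a to c, and a DSS group mean of 5259. All AOM+DSS libraries exceeded all controls. The authors' deposited table gives log2 fold changes of 0.43 in AOM+DSS (adjusted p = 0.227) and 0.55 in DSS (adjusted p = 0.0815), while limma called the AOM+DSS difference (adjusted p = 0.0469). That call was lost with a pseudocount of 10 (adjusted p = 0.0535), with upper quartile scaling (adjusted p = 0.055) and in 5 of the 6 fits with 1 library left out (adjusted p = 0.0622 to 0.175). Abcd4 averaged 546 ± 40.9, 578 ± 79.2 and 534 ± 44.3 normalized reads in AOM+DSS, DSS and control (SD, n = 3, 4 and 3), and Abcd2 stayed under 10 in each group.

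The ribosome-associated members are Abce1, which splits ribosomes after termination, and Abcf1, Abcf2 and Abcf3, of which Abcf1 acts in translation initiation. Of 4 tested, 0 passed in either comparison. Abcf1 had 3162, 3305 and 3006 normalized reads in AOM+DSS libraries a to c, against 3697, 3255 and 3577 in control libraries a to c, and a DSS group mean of 3567. Abce1 had 2249, 2533 and 1903 in AOM+DSS libraries a to c, 1896, 2487, 1416 and 1705 in DSS libraries a to d and 1930.0, 1642 and 1488 in control libraries a to c. Both were among the steadiest high members, with log2 fold changes in the authors' deposited table of -0.15 and 0.40 in AOM+DSS and 0.02 and 0.15 in DSS. Abcf3 averaged 1145 ± 48.3 normalized reads in AOM+DSS, 1236 ± 81.6 in DSS and 1187 ± 93.4 in control (SD, n = 3, 4 and 3).

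AOM+DSS was set against DSS directly, with limma on 43 members. Of these, 0 passed at an adjusted p under 0.05, beside 2.3% of 16098 genes (2.22% higher and 0.0808% lower). Before adjustment, at p under 0.05, 7 members were higher in AOM+DSS (Abca8b, Abca9, Abcc2, Abcc4, Abcc12, Abcg5 and Abcg8) and 1 lower (Abcc8), beside 13.5% of the 16098 genes. Abcg5 had a log2 difference of 0.75 (SE 0.22, adjusted p = 0.14) and Abcg8 one of 0.61 (SE 0.20, adjusted p = 0.188). Abcc2 had 2.59 (SE 0.79, adjusted p = 0.166), and without AOM+DSS library c it passed. The members called in both treatments did not pass here. Abca12 had 0.41 (SE 0.35) and Abcc5 0.47 (SE 0.25). A p that misses the threshold does not show equal levels. DSS libraries a and b differed from c and d for many members, and were left out together after these values had been seen. With 2 DSS libraries remaining, 7 members passed as higher in AOM+DSS (Abca1, Abca3, Abca8b, Abca9, Abcc4, Abcg1 and Abcg5) and 2 as lower (Abcc8 and Abcc10). In that fit 10.3% of 15829 genes passed (6.4% higher and 3.92% lower).

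Genes that work with the transporters were followed in 4 lists. Of 11 ABC proteins outside the rule and partners, 3 rose and 0 fell in AOM+DSS, and 2 rose and 1 fell in DSS. Of all genes, 5.54% were called higher and 3.35% lower in AOM+DSS, and 2.61% higher and 1.78% lower in DSS. The peptide transporters Tap1 and Tap2, which are ABC proteins named outside the rule and load antigens on MHC class I, rose in both treatments. The authors' deposited table gives Tap1 means of 4724 in AOM+DSS, 3813 in DSS and 1168 in control, with log2 fold changes of 2.02 (adjusted p = 5.5e-12) and 1.71 (adjusted p = 9.06e-09). Tap2 had 3075, 2566 and 1192 in the authors' deposited table, with log2 fold changes of 1.37 and 1.11. Tapbp, their bridge to MHC class I, rose in AOM+DSS (by the authors' deposited table, log2 0.61 and adjusted p = 0.0449). Its DSS value in the authors' deposited table was also higher and did not pass (log2 0.54, adjusted p = 0.2). Kcnj8, the pore subunit that pairs with Abcc9, fell in DSS to a mean of 17.2, against 77.8 in control, in the authors' deposited table (log2 -2.18, adjusted p = 0.00483). Its AOM+DSS value in the authors' deposited table was also lower and did not pass (log2 -1.26, adjusted p = 0.148).

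Of 16 nuclear receptors and sensors that act on transporter genes, 0 rose and 2 fell in each treatment. Lower calls made up 3.35% of all genes in AOM+DSS and 1.78% in DSS, and these shares also stand beside the falls of the other lists. Nr1h3 (LXR alpha) fell to a mean of 330.4 in AOM+DSS and 416 in DSS, against 792 in control, in the authors' deposited table (log2 -1.26, adjusted p = 4.32e-05, and log2 -0.93, adjusted p = 0.00168). Ppara, a fatty acid receptor, fell in AOM+DSS (by the authors' deposited table, log2 -0.98 and adjusted p = 0.00934). Its DSS value in the authors' deposited table was also lower and did not pass (log2 -0.61, adjusted p = 0.331). Nr1i3 (CAR), a sensor of foreign compounds, fell in DSS (by the authors' deposited table, log2 -1.64 and adjusted p = 0.00924). The AOM+DSS value of Nr1i3 in the authors' deposited table was also lower and did not pass (log2 -1.30, adjusted p = 0.0531). Of 19 genes of sterol uptake, synthesis and esterification, 0 rose, 3 fell in AOM+DSS and 2 in DSS. Insig1, a sterol-regulated brake on cholesterol synthesis, had means of 2041 in AOM+DSS, 1652 in DSS and 4434 in control in the authors' deposited table, with log2 fold changes of -1.12 and -1.42. Npc2, which carries cholesterol inside lysosomes, fell in AOM+DSS (log2 -0.82 there). Its DSS value in the authors' deposited table was also lower and did not pass (log2 -0.40, adjusted p = 0.298). Of 14 solute carriers and binding proteins for drugs and organic anions, 0 rose, 2 fell in AOM+DSS and 1 in DSS. Slc15a1, the intestinal peptide and drug importer, had means of 1328 in AOM+DSS, 1599 in DSS and 3827 in control in the authors' deposited table, with log2 fold changes of -1.53 and -1.26. Fabp6, a bile acid binding protein, fell in AOM+DSS (by the authors' deposited table, log2 -1.63 and adjusted p = 0.00521). Its DSS value in the authors' deposited table was also lower and did not pass (log2 -1.07, adjusted p = 0.0914). Median log2 fold changes of the 4 lists in the authors' deposited table lay between -0.27 and -0.03 in AOM+DSS and between -0.25 and 0.06 in DSS.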

How the data were processed

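The authors aligned to mm9 with TopHat2 2.0 and ran DESeq on the groups, per the submitters' processing notes. The read counter, its annotation and its strand setting: not given in the sources used here. The TruSeq v2 kit of the labels' protocols does not mark strand. The signal columns, deposited by the authors in 2 tables, are means of counts divided by a size factor, per the file headers. The fold column, deposited by the authors, is the treated mean over the control mean, and the log2 column is its logarithm, per the file headers. The p-value columns were deposited by the authors, and the adjustment equals Benjamini-Hochberg. The planned count test was not run, as the tables hold no counts per library.

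A group mean is a sum of whole reads over size factors, so a mean printed to 15 digits mostly allows 1 combination of whole reads. Values were recovered where exactly 1 combination matched: 99.9% of genes in AOM+DSS, 90.2% in DSS (lowest mean not recovered 1383) and 99.5% in control, holding 95.3%, 34.6% and 85.4% of the mean totals. On simulated data 0 were wrong. The header of a table speaks of more AOM+DSS replicates than the 3 that the labels list, and the values show 3 libraries. Letters cannot be tied to replicate numbers. Limma 3.58.1 (R 4.3.3, trend) ran over all recovered genes with Benjamini-Hochberg adjustment. In simulated data for AOM+DSS against control (18015 genes) it found 69.7% of 2-fold and 100% of 4-fold changes. For DSS against control (16114 genes) these shares were 58.4% and 98.6%, and for AOM+DSS against DSS (16156 genes) 72.6% and 99.4%. Simulated libraries had the same spread beyond counting error for every gene, and changes were set only in genes above a minimum mean. Members with a wider spread, such as Abca1 in DSS (mean 406 and SD 443 normalized reads), are not described by these shares.

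Lengths come from GENCODE M21 (GRCm38). Python 3.11.15, pandas 2.3.3 and numpy 2.4.6 were used. Members, role classes, lists and tests were chosen with earlier results of these data known. Library values are given for members called in a comparison and for the 2 highest of each role class; those of Abca1, Abca8a, Abca8b, Abca9, Abcb11, Abcc2, Abcc4, Abcg1 and Abcg5 were added after their values were seen. The values of some members and list genes are not reported here. Of each pathway list, up to 3 called genes are named, and for AOM+DSS against DSS counts alone were made (0 called in each of the 4 lists). Alternatives were other thresholds, a filter at a mean of 10, limma, a pseudocount of 10, upper quartile scaling and left-out libraries. Intervals and floors cover counting error only.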

Additional observations from a re-analysis of the deposited data

Results flagged for a closer look

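Among the 32 members with values of all 4 DSS libraries and a mean of at least 10, 4 had a single library far from the rest, by a gap that, over the group's range, exceeds Dixon's critical value; chance alone flags a share of about 0.05 of such groups. All 4 stood out in DSS library a. Abcg1, a cholesterol exporter, had 639 normalized reads there, against 148.9 to 187 in DSS libraries b to d. Abca2, a lysosomal lipid transporter of the brain, had 648 there, against 327 to 364 in the others. Abca5 had 45.8, against 21.7 to 24.1, and Abcg3, an ABCG gene of rodents, had 71.9, against 11.3 to 20.2. DSS library a also held 4639.9 normalized reads of T and NK cell markers, where DSS libraries b to d held 687 to 889. Its B and plasma cell markers summed to 11352, where b to d held 2309.6 to 3679.7. The part of these cells in the 4 values was not tested.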

How the results depend on the processing

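No paired analysis was possible because recovered libraries carry no replicate number. Of comparisons with control, thresholds were varied on the authors' calls, and other scalings and left-out libraries on limma fits, so these are read against limma's own counts. In AOM+DSS the authors' 2 increases (Abca12 and Abcc5) were 8 with limma. Limma then gave 6 with a pseudocount of 10, 7 with upper quartile scaling and 3 to 11 with 1 library left out (9 without control library b, 11 without AOM+DSS library c). The authors' 2 decreases were 1 at an adjusted p under 0.01. Limma gave 3, then 4 with upper quartile scaling and 0 to 4 with 1 library left out. In DSS the authors' 2 increases were 4 at an adjusted p under 0.10. Limma gave 3, then 6 with DSS libraries a and b left out, 4 with c and d left out and 0 to 3 with 1 library left out. The authors' 1 decrease was 0 at 0.01. Limma gave 0, with a pseudocount of 10 and upper quartile scaling also 0, then 3 with DSS libraries c and d left out and 0 to 1 with 1 library left out. Of AOM+DSS against DSS, the 0 higher became 7 and the 0 lower became 2 with DSS libraries a and b left out, and 0 to 1 were higher (Abcc2, without AOM+DSS library c) and 0 to 0 lower with 1 library left out. The left-out library pairs were chosen after seeing the data, and the cause of these shifts was not tested.

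No member called in the authors' deposited table changed sign in any alternative. Among the 17 members named for a call or a high level in their role class, some other differences did. None of these was called by the authors' deposited table or by limma on all libraries. For Abca3 and Abcb6, the sign depended on the DSS pair left out. In DSS against control without DSS libraries a and b, limma called Abca3 lower (log2 -0.78, adjusted p = 0.0188). It called Abcb6 higher there (log2 0.56, adjusted p = 0.0238). In AOM+DSS against control, Abcb6 gave 0.037 without AOM+DSS library b and Abcc9 -0.33 without c. In DSS against control, Abca3 gave 0.10 and Abcb6 -0.071 without DSS libraries c and d, Abcc9 0.38 without control library b, and Abce1 -0.014 without DSS library b and -0.11 without a and b. In AOM+DSS against DSS, Abca13 gave 0.32 without DSS library a, 0.12 without b, 0.40 without AOM+DSS library c and 0.72 without DSS libraries a and b. Abcb8 gave 0.019 without DSS library c, 0.029 without d, 0.019 without AOM+DSS library c and 0.23 without DSS libraries c and d. There Abca3 gave -0.26 without DSS libraries c and d, and 0.61 without a and b, where limma called it (adjusted p = 0.0332). Over the same 17 members and alternatives with a test, 371 values kept their side of the threshold and their sign. Of the others, 32 lost a call, 21 gained one and 16 changed sign. Other members named above, such as Abca1, Abcb11, Abcc4, Abcc10, Abcc12 and Abcg1, are outside these totals. With 10 added to both means, which has no test, 33 moved by less than the spread between replicates or had none to set it against, and 1 moved by more. DSS values of single libraries could not be had for 5 high members, which limits what can be said of the most abundant transporters in that group.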
